A study of Mus musculus with 2 samples.

Results

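The genes described here handle iron, zinc and copper in the mouse kidney. They were chosen by symbol, with no measured value in the rule, though earlier results of these data were known. The rule took every gene of the solute carrier families Slc11, Slc30, Slc31, Slc39, Slc40 and Slc41. It added 21 named genes for metallothioneins, ferritin, transferrin and its receptor, ferroxidases, metalloreductases, iron regulatory proteins, iron chaperones and copper pumps. Of the 19829 genes listed, 49 met this rule. *Slc30a3*, *Slc30a8*, *Slc30a10* and *Slc39a12* belong to the same families but had no row and were not analysed here. The Slc41 genes encode magnesium transporters and entered through their family name.

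Whole-kidney RNA was sequenced after acute kidney injury (AKI), as 1 library of wild-type mice (WT+AKI) and 1 of *Inmt* transgenic mice (TG+AKI). In the study's methods both groups were C57BL/6 mice that received voclosporin, a calcineurin inhibitor, intraperitoneally at 30 mg/kg per day for 2 weeks from 8 to 10 weeks of age. Male mice then underwent bilateral renal ischemia for 30 min and reperfusion (I/R) at 14 weeks of age. The transgene raises *Inmt*, which encodes indolethylamine N-methyltransferase, in proximal tubules; its promoter, and whether the RNA of several mice was pooled, were not given in the sources used here. The sample labels state no treatment and also call the transgenic animals a conditional knockout. *Inmt* had a normalized read count of 10.4 in WT+AKI against 402.8 in TG+AKI, the direction of the transgenic label. No vehicle or sham library was analysed here, so both groups are taken here as drug-treated and injured, differing in genotype. With 1 library per group, no difference has a replicate check.

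Cells take up most iron as transferrin bound to its receptor, store it in ferritin and release it through ferroportin, while iron regulatory proteins bind iron-responsive elements in the mRNAs of these proteins. Zinc enters the cytosol through ZIP (Slc39) transporters, leaves it through ZnT (Slc30) transporters and is buffered by metallothioneins, whose genes are switched on by the zinc-sensing factor MTF1 at metal response elements. Copper enters through CTR1 (*Slc31a1*) and is pumped out by the ATPases ATP7A and ATP7B. Proximal tubules reabsorb filtered metal carriers, and iron released in injured tubules is known to feed oxidative damage.

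The values are normalized read counts, read counts per gene divided by 1 scaling factor per library. Depth was close, with 38542764 reads assigned to genes in WT+AKI against 36427421 in TG+AKI, where a normalized count of 10 stood for 424.0 and 331.2 reads. Brackets give 95% Clopper-Pearson intervals of the ratio between the libraries, and they cover counting error only, not differences between animals. Reads are not independent molecules, so even the counting error may be larger than shown. A gene was compared where its normalized count reached 10 in either library, and called 2-fold higher or lower from its difference on the log2(normalized count + 1) scale, on which the differences of low genes come out too small. Of the 49 genes, 41 were compared, and the other 8 ranged from 0.189 to 7.31.

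Sequences are shown first for the elements through which the products of these genes are known to be controlled. The promoter stretches of *Mt1* and *Mt2* are shown because these genes differed most between the libraries. Each covers the 250 bases before the RefSeq transcript start (GRCm38.p6, plus strand), chr8:94178839-94179088 for *Mt1* and chr8:94172368-94172617 for *Mt2*. Capitals mark matches to the metal response element core, TGCACNC or TGCGCNC, on either strand.
Mt1: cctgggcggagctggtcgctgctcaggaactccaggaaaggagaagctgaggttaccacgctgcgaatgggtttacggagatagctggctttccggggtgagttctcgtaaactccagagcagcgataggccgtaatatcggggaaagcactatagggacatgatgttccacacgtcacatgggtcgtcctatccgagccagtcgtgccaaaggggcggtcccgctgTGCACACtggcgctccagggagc
Mt2: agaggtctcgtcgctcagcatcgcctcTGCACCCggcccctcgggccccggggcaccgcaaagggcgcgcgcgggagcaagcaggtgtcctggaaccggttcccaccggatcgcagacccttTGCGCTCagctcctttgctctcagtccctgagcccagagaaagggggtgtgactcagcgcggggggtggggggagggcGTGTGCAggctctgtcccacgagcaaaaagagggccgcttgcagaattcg

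With the 50 bases after the start included, the window held 3 cores for *Mt1* and 4 for *Mt2*. The *Mt1* cores at distances of 2 and 20 bases from the start, and the *Mt2* core at 4, lie past the stretches shown. Bases outside the window were not searched. In GENCODE, another annotation, *Mt2* starts at chr8:94172664, past the stretch shown, so the counts of cores depend on the start used. A promoter window of this length was at hand for 42 of the 49 genes. Of these, 24 (57.1%) held at least 1 core, against 28.2% of all 27025 genes with a window, and 7 (16.7%) held at least 2, against 8.07%. Among genes that reached a normalized count of 10, the gap was smaller: 21 of 35 held at least 1 core, against 40.6% of 8168 genes, and 7 of 35 at least 2, against 13.3%. Those 7 were *Mt2*, *Mt1*, *Slc30a4*, *Slc30a1*, *Slc30a2*, *Atp7a* and *Tfrc*. Only *Mt2*, *Mt1* and *Slc30a4* held 3 or more, against 3.91% of those 8168 genes. The 2 cores of *Tfrc* overlap on opposite strands. Genes that share the core did not share the size of the difference. *Mt1* and *Mt2* were several-fold lower in TG+AKI, whereas the ratio was 0.942 for *Slc30a1*, 1.02 for *Slc30a2* and 0.716 for *Slc30a4*. It was 0.959 for *Atp7a* and 1.05 for *Tfrc*. The part of the cores in these differences was not tested.

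**Figure D1:**
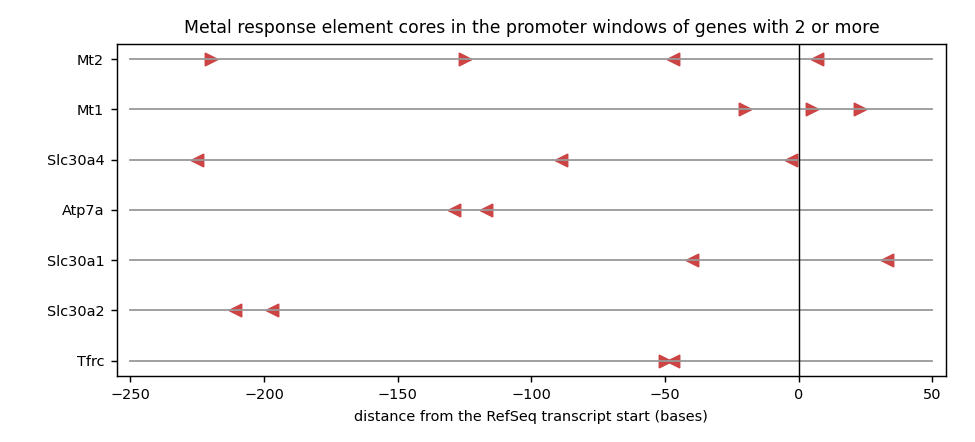
Positions of metal response element cores in the promoter windows of the 7 genes with at least 2 of them, as the distance in bases from the RefSeq transcript start. Triangles point right for the gene's own strand and left for the opposite strand. *Mt2* held 4 and *Mt1* 3.

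Iron-responsive element cores are shown because the iron regulatory proteins are known to bind such elements in mRNAs of iron proteins. In a 5′ untranslated region binding blocks translation, and in the 3′ region of the transferrin receptor mRNA it protects the message from decay. The search asked for a CAGTGN loop between 5 paired bases on each side (G-U pairs allowed) with a C before the first of them. It found a match in 4 of the 49 genes, against 1.34% of the 21901 protein-coding genes searched, whose transcripts differ in length. A match does not show binding, and elements with a mismatch in the stem or another loop would be missed. Capitals mark the C and the loop, with positions on mm10.
Fth1, 5′ region, chr19:9982732-9982760, plus strand: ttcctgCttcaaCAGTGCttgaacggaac
Ftl1, 5′ region, chr7:45459779-45459807, minus strand: gtcttgCttcaaCAGTGTttgaacggaac
Slc40a1, 5′ region, chr1:45925465-45925493, minus strand: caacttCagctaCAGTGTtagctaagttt
Tfrc, 3′ region, first of 4, chr16:32631219-32631247, plus strand: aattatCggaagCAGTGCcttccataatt

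Both ferritin subunits carry the same 5-base stem, and their mRNA ratios were 0.591 for *Fth1* and 1.28 for *Ftl1*. Elements in the 5′ region act on translation, which mRNA levels do not measure. For the other genes with a match, the ratio was 0.667 for *Slc40a1* and 1.05 for *Tfrc*.

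The tissue differed between the libraries as well. The summed normalized count of 10 proximal tubule markers was 7254 in WT+AKI against 32111 in TG+AKI, with 10 of 10 at least 2-fold higher. That of 10 tubular injury markers was 13617 against 855.3, with 10 of 10 at least 2-fold lower. Markers of thick ascending limb (1966 and 3286), distal nephron and collecting duct (452.2 and 1048), podocytes (422.9 and 453.8) and endothelium (281.6 and 304.9) were present in both, as the kidney label requires. Hepatocyte genes, several of which proximal tubules express, summed to 603.9 and 1845, with *Cyp2e1* alone at 129.9 and 1422. Of the 5 compared, 2 were at least 2-fold higher and 1, *Fgb* (47.8 and 2.84), lower, with a median log2 fold change of -0.21. Of 10 macrophage markers, *Marco* had no row and the other 9 summed to 174.7 and 84.6, with 5 at least 2-fold lower and *Csf1r* near level at 37.5 and 43.0. Of 10 neutrophil markers, *S100a8*, *S100a9* and *Csf3r* had rows, summing to 7.38 and 1.42, and the defining *Mpo*, *Elane* and *Ly6g* had none. Red cell markers summed to 16.4 and 58.6 over 8 genes, with most of it from *Slc4a1*, which intercalated cells also express. In whole-kidney RNA, fewer cells of a type and less RNA per cell cannot be told apart, and the part of these shifts in any difference given here was not tested.

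As a group, the metal-handling genes held more low than high genes in TG+AKI. Of the 41 compared, 9 were at least 2-fold lower, against 7.12% of all 10294 compared genes, and 1 was at least 2-fold higher, against 5.74%. The 9 were *Mt2*, *Mt1*, *Steap1*, *Cp*, *Steap4*, *Slc39a14*, *Slc39a6*, *Slc41a1* and *Trf*, and the 1 was *Slc39a11*. *Steap1*, *Steap4* and *Slc39a6* reached 10 in WT+AKI alone, so 3 of the 9 were compared only because of the library in which they were high. The other 31 genes differed by less than 2-fold. Counting intervals lay above 1 for 16 of the 41 genes, against 41.8% of all compared genes, below 1 for 21, against 39.5%, and included 1 for 4, against 18.7%. Just past 2-fold, and so called, lay *Trf* at -1.02 and *Slc41a1* at -1.10 on the log2 scale. Just short of it lay *Steap2* at -0.99 and *Slc39a5* at 0.93. The median log2 fold change was -0.086 over the 41 genes and 0.014 over all compared genes. The split between high and low depends on the scaling. With equal column totals, a shift of -0.28 in the median of all genes, 1 gene was higher and 12 lower, against 361 higher and 1143 lower of all genes, and *Fth1*, *Slc39a1* and *Steap2* were the 3 that joined the lower ones.

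**Figure D2:**
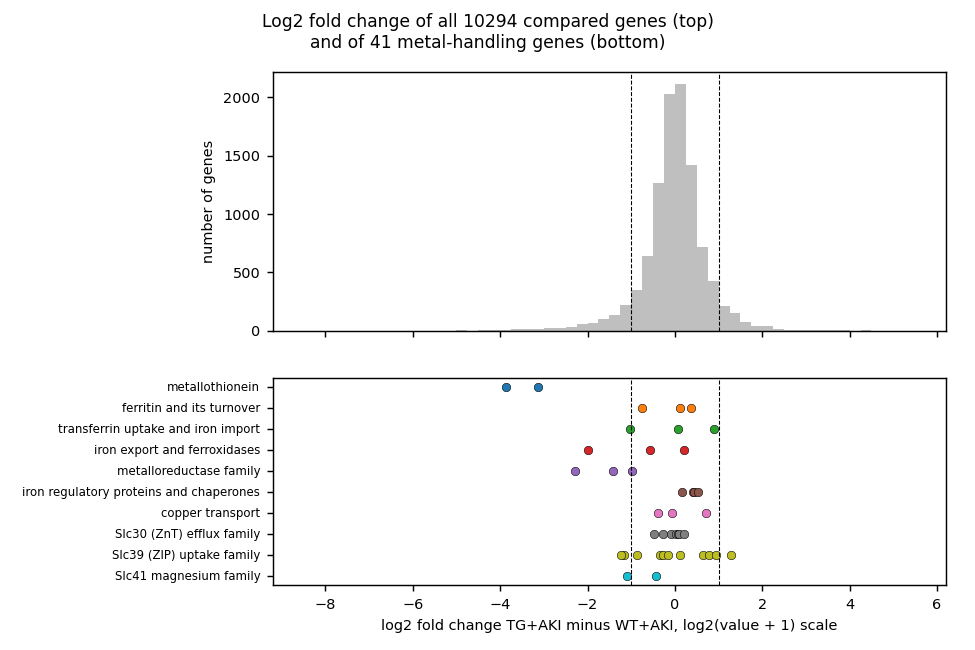
Distribution of the log2 fold change (TG+AKI minus WT+AKI, log2(normalized count + 1) scale) of 10294 genes as numbers of genes, above the 41 compared metal-handling genes by role, 1 point per gene. Dashed lines mark 2-fold. The metallothioneins lie at -3.13 and -3.87, far to the left of the ZnT transporters, which lie between -0.47 and 0.22.

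The metallothioneins, small cysteine-rich proteins that bind zinc and copper, showed the largest differences. *Mt1* (gene ID 17748) had a normalized count of 378.9 in WT+AKI against 42.4 in TG+AKI, 8.94-fold lower [8.47 to 9.45]. *Mt2* (gene ID 17750) had 344.6 and 22.6, 15.3-fold lower [14.2 to 16.4]. *Mt3*, best known from brain, was close to background at 0.472 and 0.211 from 20 and 7 reads, and its interval included 1 [0.160 to 1.103]. *Mt1* and *Mt2* are neighbours on the plus strand of chromosome 8 (chr8:94179082-94180327 and chr8:94172664-94173568, 5513 bases apart on mm10), and they did not move in proportion: within a library *Mt1* had 1.0997 times the reads of *Mt2* in WT+AKI [1.08 to 1.12] and 1.88 times in TG+AKI [1.72 to 2.05], a comparison free of the scaling. Together they took 0.0796% of all reads in WT+AKI and 0.00590% in TG+AKI. An annotated antisense transcript overlaps 69.5% of the *Mt2* exons, and since no source states that counting used the strand, its level is uncertain to that extent. *Mtf1*, the zinc sensor that switches these genes on, had 35.1 and 26.1 (ratio 0.745).

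Ferritin, the iron store, consists of heavy (*Fth1*) and light (*Ftl1*) subunits. *Fth1* was the most abundant of the 49 genes per kilobase of transcript in both libraries, at 3192 and 1886 normalized counts per kilobase, followed by *Ftl1* at 1429 and 1834. In normalized counts, *Fth1* had 4769.5 in WT+AKI and 2818 in TG+AKI, 1.69-fold lower [1.68 to 1.71], and *Ftl1* had 1384 and 1776, a ratio of 1.28 [1.27 to 1.30]. The reads of *Fth1* were 3.45 times those of *Ftl1* in WT+AKI [3.42 to 3.48] and 1.59 times in TG+AKI [1.57 to 1.604], so the mRNA balance between the subunits differed between the libraries whatever the scaling. *Ftl1* shares 60.4% of its 100-base words with processed copies such as *Ftl1-ps1*, and its level is therefore uncertain. *Ncoa4*, the receptor that delivers ferritin to lysosomes, had 181.8 and 196.5, a ratio of 1.08 [1.05 to 1.12] that falls below 1 with equal column totals. It shares 39.8% of its words with *Gm6768*.

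**Figure D3:**
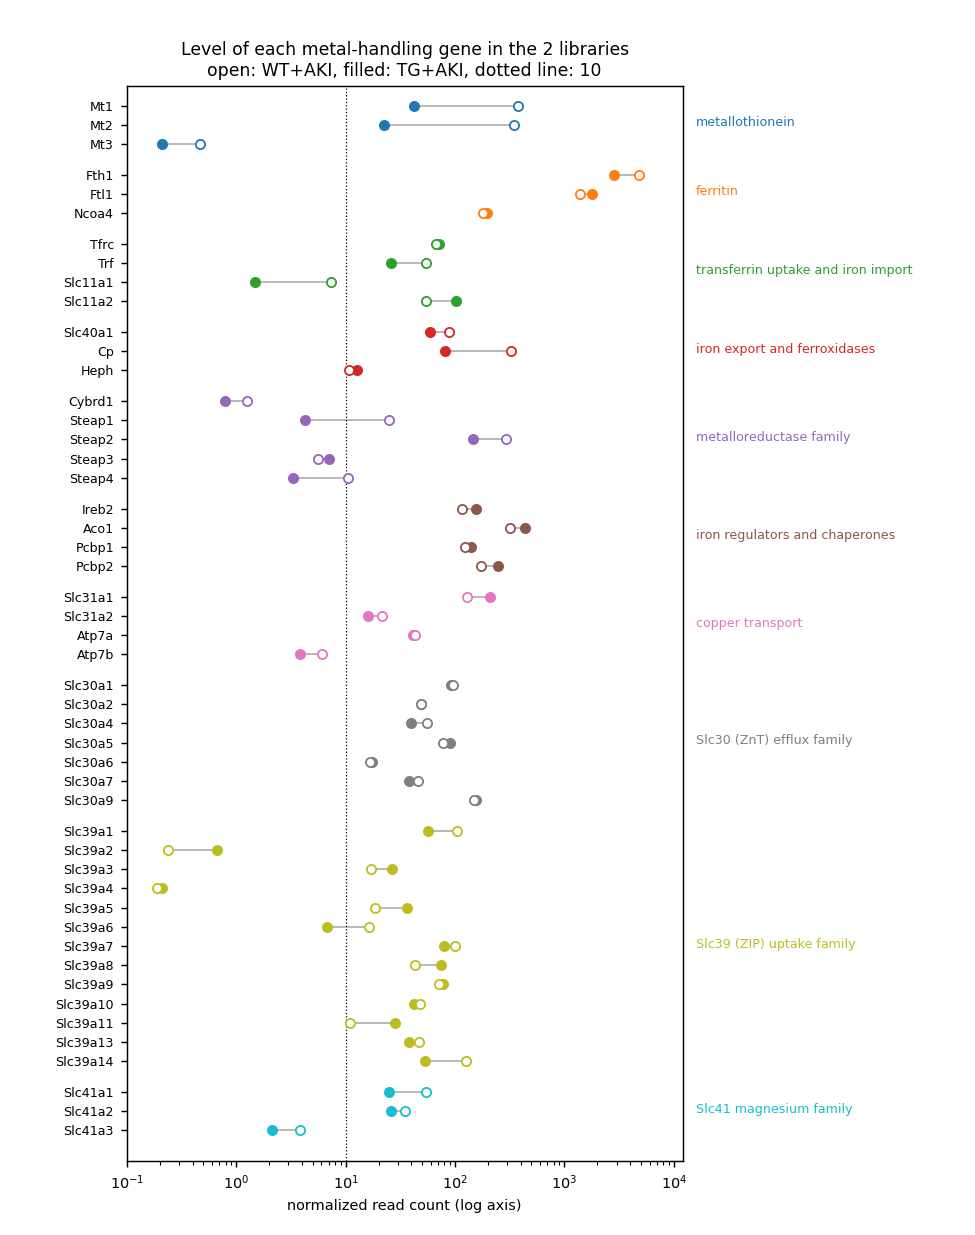
Normalized read count (log axis) of the 49 metal-handling genes in WT+AKI (open circles) and TG+AKI (filled circles), grouped by role, with a grey line joining the 2 libraries and a dotted line at 10. *Fth1* and *Ftl1* stand highest, and the longest gaps are those of *Mt2* and *Mt1*.

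Iron uptake genes did not share a direction. *Tfrc*, the transferrin receptor, had 67.6 and 71.1, and its interval included 1 [0.996 to 1.11]; with equal column totals its log2 fold change was -0.20. *Slc11a2* (DMT1), which carries ferrous iron out of endosomes and across the apical membrane, had 54.3 in WT+AKI against 102.1 in TG+AKI, a ratio of 1.88 [1.78 to 1.98]. *Trf*, which encodes transferrin itself, had 54.3 and 26.2, 2.07-fold lower [1.91 to 2.24]. The read-through gene model *Gm20425* covers 82.0% of the *Trf* exons on the same strand, so reads of *Trf* may have been split or dropped. *Slc11a1* (NRAMP1), a metal transporter of phagocyte vacuoles, was below the filter at 7.31 and 1.48 from 310 and 49 reads, 4.94-fold lower [3.65 to 6.82].

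The iron exporter and its ferroxidases also diverged. *Slc40a1*, the gene of ferroportin, the known exporter of cellular iron, had 89.0 and 59.4, 1.499-fold lower [1.42 to 1.58]. *Cp* (ceruloplasmin), a copper-containing ferroxidase that is also an acute-phase protein, had 326.7 in WT+AKI and 81.4 in TG+AKI, 4.01-fold lower [3.85 to 4.18]. *Heph*, the membrane-bound relative of ceruloplasmin, was low at 10.8 and 12.8, with a ratio of 1.18 [1.03 to 1.35] that drops below 1 with equal column totals. In WT+AKI *Cp* had 71.6 normalized counts per kilobase of transcript against 2.29 for *Heph*, and in TG+AKI 17.8 against 2.69.

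The metalloreductase family, which turns ferric into ferrous iron and cupric into cuprous copper before import, had 3 of its 5 genes compared, and these were lower in TG+AKI. *Steap1* and *Steap4* reached 10 in WT+AKI alone, so the filter helped to set that direction, and *Steap3*, which it left out, was higher. *Steap2* was the most abundant at 290.8 and 145.7, 1.995-fold lower [1.93 to 2.06] and just short of the 2-fold call at -0.99 on the log2 scale. *Steap1*, which lacks the reductase domain of its relatives, had 24.8 and 4.26, 5.83-fold lower [4.89 to 7.005]. *Steap4*, known as inducible by inflammatory cytokines, had 10.5 and 3.32, 3.16-fold lower [2.56 to 3.93]. *Steap1* and *Steap2* lie 41.7 kb apart on the minus strand of chromosome 5, but the reads of *Steap2* were 11.7 times those of *Steap1* in WT+AKI and 34.2 times in TG+AKI. *Steap3*, the reductase of transferrin endosomes, was listed at 5.61 and 7.13 (ratio 1.27 [1.06 to 1.53]) and *Cybrd1*, the duodenal ferric reductase, at 1.25 and 0.785, with an interval that included 1 [0.377 to 1.02].

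The iron regulatory proteins and iron chaperones differed little and in 1 direction. *Aco1* (IRP1, which doubles as cytosolic aconitase) had 319.2 and 432.4, a ratio of 1.35 [1.32 to 1.39], and *Ireb2* (IRP2) had 115.7 and 155.2, a ratio of 1.34 [1.29 to 1.40]. *Pcbp2*, an RNA-binding protein that delivers iron to ferritin, had 172.5 and 248.8, a ratio of 1.44 [1.40 to 1.49], although antisense exons overlap 52.8% of it. Its partner *Pcbp1* had 124.5 and 139.4, a ratio of 1.12 [1.08 to 1.16]. Of the 4, *Pcbp1* alone turned lower with equal column totals.

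Copper transporters showed no 2-fold difference. *Slc31a1* (CTR1), the copper importer of the plasma membrane, had 127.5 in WT+AKI against 208.2 in TG+AKI, a ratio of 1.63 [1.58 to 1.69]. Its relative *Slc31a2* (CTR2) had 21.5 and 16.2, 1.33-fold lower [1.19 to 1.48]. The pump *Atp7a* had 43.4 and 41.6, with an interval that included 1 [0.894 to 1.03], and *Atp7b* was listed at 6.06 and 3.87, 1.57-fold lower [1.26 to 1.95].

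**Figure D4:**
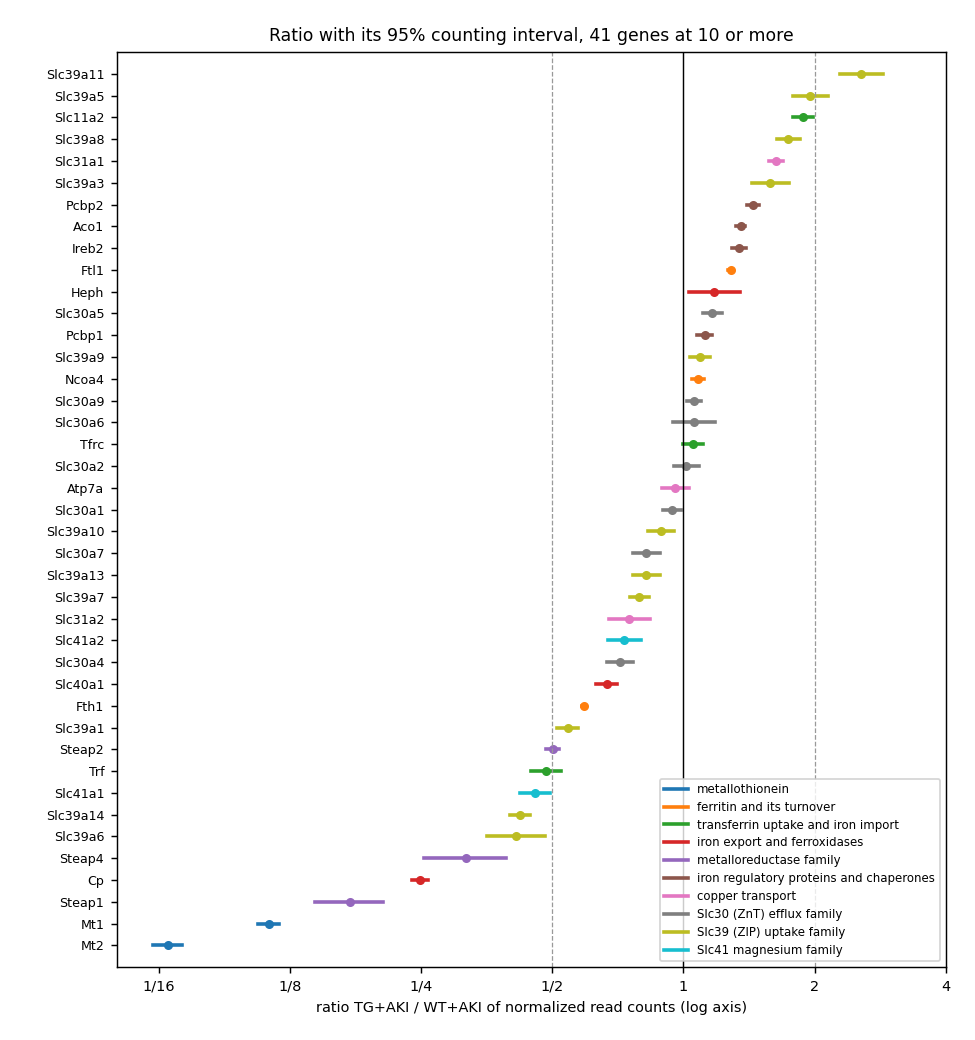
Ratio of the normalized read counts (TG+AKI over WT+AKI, log axis) of the 41 compared genes, coloured by role and sorted, with 95% counting intervals as bars. The solid line marks 1 and dashed lines mark 2-fold in either direction. *Slc39a11* at 2.56 is the one ratio whose interval lies above 2, and the intervals of the metallothioneins are the lowest.

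The ZIP family, which brings zinc into the cytosol, spread in both directions. Of its 13 listed genes 11 were compared. Intervals lay above 1 for 5, against 41.8% of all compared genes, and below 1 for 6, against 39.5%. *Slc39a14*, a carrier of zinc, manganese and iron not bound to transferrin that is known to respond to inflammation, had 124.8 in WT+AKI and 52.7 in TG+AKI, 2.37-fold lower [2.24 to 2.50]. Its close relative *Slc39a8*, with the same range of metals, had 43.1 and 75.0, a ratio of 1.74 [1.64 to 1.85]. Their order was therefore opposite in the libraries: the reads of *Slc39a14* were 2.89 times those of *Slc39a8* in WT+AKI [2.74 to 3.05] and 0.702 times in TG+AKI [0.660 to 0.746].

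Of the other ZIP genes, *Slc39a11* had 10.99 and 28.1, a ratio of 2.56 [2.29 to 2.87]. *Slc39a5*, a zinc carrier of the basolateral membrane, had 18.7 and 36.5, a ratio of 1.96 [1.79 to 2.14], and *Slc39a3* had 16.9 and 26.8, a ratio of 1.58 [1.43 to 1.75]. On the low side, the plasma membrane importers *Slc39a6* and *Slc39a1* had 16.4 and 6.79, 2.42-fold lower [2.08 to 2.82], and 105.3 and 57.1, 1.84-fold lower [1.75 to 1.95]. The remaining ZIP genes that were compared stayed closer to 1. *Slc39a7*, which releases zinc from the endoplasmic reticulum, had 100.5 and 79.7 (ratio 0.793), with 86.0% of its exons covered by the gene model *Gm20427*. *Slc39a13* had 46.6 and 38.3 (ratio 0.822), *Slc39a10* 47.6 and 42.3 (ratio 0.8903) and *Slc39a9* 70.7 and 77.2 (ratio 1.09, below 1 with equal column totals). *Slc39a2* (10 and 22 reads, ratio 2.82 [1.28 to 6.66]) and *Slc39a4* (8 and 7 reads), the zinc carrier of the gut, were listed far below the filter.

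The ZnT family, which moves zinc out of the cytosol, held no gene past 2-fold. The log2 fold changes ran from -0.47 to 0.22, and the summed normalized count of its 7 genes was 487.5 in WT+AKI and 481.4 in TG+AKI. *Slc30a1*, the exporter of the plasma membrane and a known target of MTF1, had 96.7 and 91.1 (ratio 0.942 [0.898 to 0.987]), where *Mt1* and *Mt2* were many-fold lower. The part of MTF1 in these differences was not tested. *Slc30a9* had 147.7 and 156.5 (ratio 1.06) and *Slc30a5*, which loads zinc into the secretory pathway, 77.2 and 90.0 (ratio 1.16), and both fall below 1 with equal column totals. The vesicular carrier *Slc30a4* had 55.1 and 39.5 (ratio 0.716) and *Slc30a7*, of the Golgi, 45.7 and 37.6 (ratio 0.822). Intervals included 1 for *Slc30a2*, at 48.4 and 49.3, and *Slc30a6*, at 16.6 and 17.5.

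The 3 Slc41 magnesium transporters were lower in TG+AKI. *Slc41a1*, a sodium-coupled magnesium exporter, had 54.4 and 24.9, 2.19-fold lower [2.02 to 2.37]. *Slc41a2* had 35.2 and 25.8, 1.36-fold lower [1.25 to 1.49], and *Slc41a3* was below the filter at 3.82 and 2.11, 1.81-fold lower [1.36 to 2.43].

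Other genes of iron, copper and zinc metabolism were taken from 7 lists with 89 entries, of which 68 were compared. In these, 6 genes (8.82%) were at least 2-fold higher in TG+AKI, against 5.74% of all compared genes, and 5 (7.35%) at least 2-fold lower, against 7.12%, shares near the background. *Uros* and *Flvcr2* reached 10 in TG+AKI alone, and *Lcn2*, *Lox* and *Aoc1* in WT+AKI alone, so these 5 were compared only through the library in which they were high. In heme synthesis, 8 of 8 compared genes had log2 fold changes above 0 (median 0.51), against 51.2% of all compared genes. *Uros*, of this list, had 9.98 and 23.7. Genes of mitochondrial iron and iron-sulfur cluster assembly had a median of 0.39 over 23 genes, with 20 above 0 and none at 2-fold, and they include *Cisd1*, an iron-sulfur protein of the outer membrane, at 91.7 and 176.5. With equal column totals, 7 of the 8 heme synthesis genes (median 0.24) and 15 of these 23 (median 0.12) remained above 0, against 29.6% of all compared genes.

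Heme uptake, export and breakdown had a median of -0.45 over 11 genes. *Hmox1*, the inducible heme oxygenase that frees iron from heme, had 169.7 in WT+AKI and 43.3 in TG+AKI, 3.92-fold lower. The heme and choline carrier *Flvcr2* had 9.76 and 27.4 (ratio 2.81), and *Slc46a1*, a folate carrier that also takes up heme, 17.4 and 39.6 (ratio 2.27). In the list for siderophore and filtered iron uptake (5 compared, median 1.29), the receptors *Lrp2* (megalin) at 644.3 and 2754 and *Cubn* (cubilin) at 287.3 and 740.1 were higher, as was *Bdh2*, an enzyme connected with the mammalian siderophore, at 90.3 and 222.4. *Lcn2*, the siderophore-binding NGAL, had 249.8 and 1.87. *Lcn2* is the transcript the study centres on and also stands in the tubular injury list, as *Lrp2* and *Cubn* do in the proximal tubule list, so these are not independent of the marker shifts above. Among 15 copper chaperones and cuproenzymes (median 0.10), 6 had intervals above 1, against 41.8% of all compared genes, and 6 below, against 39.5%. Those at least 2-fold lower were the matrix cross-linking oxidases *Lox* (25.5 and 6.34) and *Loxl1* (29.98 and 13.2) and the diamine oxidase *Aoc1* (10.001 and 3.65), whereas the copper, zinc superoxide dismutase *Sod1* had 257.8 and 418.1 (ratio 1.62). None of the 4 genes of systemic iron control (median -0.16) or the 2 of zinc sensing (median 0.12) that were compared passed 2-fold. Below the filter, the zinc receptor *Gpr39* had 6.27 and 2.11, 2.97-fold lower [2.27 to 3.92]. The zinc-binding *S100a9*, also in the neutrophil list, had 3.14 and 0.393, and *S100a8*, in the same lists, 0.967 and 0.393. *Hp*, of the heme uptake list, had 3.21 and 0.242, from 136 and 8 reads. *Scara5*, of the filtered iron list, went the other way at 0.708 and 1.90, a ratio of 2.69 [1.71 to 4.30].

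**Figure D5:**
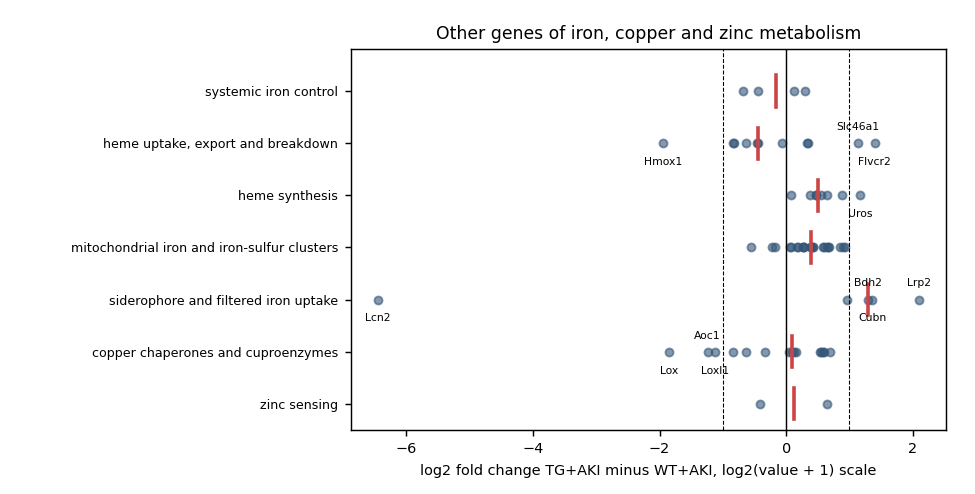
Log2 fold change (TG+AKI minus WT+AKI, log2(normalized count + 1) scale) of 68 other genes of iron, copper and zinc metabolism in 7 lists, 1 point per gene, with the list's median as a red bar and dashed lines at 2-fold. Symbols name the genes past 2-fold. *Lcn2* stands apart at -6.45, and the median of heme synthesis lies at 0.51.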

How the data were processed

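The authors aligned reads of stranded mRNA libraries with STAR (version 2.7.3a), counted them per gene with HTSeq and, per the methods, normalized with DESeq2. The sources also name edgeR. Deposited values summed to 909104 in WT+AKI and 1099984 in TG+AKI, far below the reads assigned. Dividing the reads by DESeq2 size factors, computed here as 1.14 and 0.879, would not give such sums. Which tool set the deposited scale is therefore not known here. The submitters' processing notes name mm10 as the build. The gene annotation and the strand setting are not given in the sources used here. The deposited table holds 1 normalized count signal per gene and library. Every value was a whole multiple of the value of 1 read (100% of values within 0.01 of a whole number; 0.0236 in WT+AKI and 0.0302 in TG+AKI), so whole reads were recovered. No listed gene was without reads in either library, so a missing row does not show that a gene lacked reads in both.

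Genes reaching 10 in either library were compared on the log2(normalized count + 1) scale. Ratios carry 95% Clopper-Pearson intervals from the reads. No p-value was given for the genotypes. Levels per kilobase used the longest basic protein-coding transcript of GENCODE M21 (GRCm38, equal to mm10), to which all 49 symbols matched, and words of 100 bases were compared among its transcripts. Promoter windows came from RefSeq (GRCm38.p6). Procedures were tested on simulated reads. Alternatives were pseudocounts of 0.1 and 10, 3 other scalings, filters of 1, 50 and none, a fold of 1.5 and leaving out Slc41. Every gene reaching 10 was named. Genes below 10 were named where over 2-fold apart with an interval excluding 1, or to complete a family, and other pathway genes where past 2-fold. *Cybrd1*, *Atp7b*, *Slc39a4*, *Mtf1*, *Cisd1*, *Sod1*, *Gpr39*, *S100a9*, *S100a8*, *Hp* and *Scara5* were added after their values were seen. The members and lists were chosen with earlier results of these data known. Python 3.11.15, numpy 2.4.6, scipy 1.17.1, pandas 2.3.3, pydeseq2 0.5.4 and matplotlib 3.10.9 were used.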

Additional observations from a re-analysis of the deposited data

How the results depend on the processing

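With 1 library per group, no replicate could be left out, and no paired analysis was possible because each group has a single library. The number of genes at least 2-fold lower (9) was 5 at a pseudocount of 10, which removed genes and added none, and 12 when column totals were made equal. *Trf*, *Slc41a1*, *Slc39a6* and *Steap4* were those removed. At that pseudocount 12.20% of the compared metal-handling genes were lower, against 3.96% of all compared genes. The single higher gene, *Slc39a11*, gave a count of 0 with a pseudocount of 10 or a filter of 50. The shares of all genes higher there were 3.61% and 8.56%. At 1.5-fold, 6 of the 41 genes were higher, against 13.97% of all compared genes, which is near the background. At the same fold 12 (29.27%) were lower, against 14.28%. The median of -0.086 moved to -0.36 with equal column totals, -0.23 when well-expressed genes (100 or more in each library) were centred on a median ratio of 1, and -0.22 with a filter of 1, which adds 5 genes. Those scalings shift all genes, by -0.28 and -0.15. DESeq2 size factors moved the counts of neither direction. Of the 37 genes whose interval excludes 1, 31 kept their direction under all pseudocounts and scalings tried and 6 did not. Of the 4 whose interval includes 1, *Tfrc*, *Slc30a2* and *Slc30a6* also changed sign. With equal column totals the log2 fold change was -0.036 for *Heph*, -0.11 for *Pcbp1*, -0.16 for *Ncoa4*, -0.054 for *Slc30a5*, -0.19 for *Slc30a9* and -0.15 for *Slc39a9*. With a median ratio of 1 it was -0.032 for *Ncoa4*, -0.061 for *Slc30a9* and -0.016 for *Slc39a9*. An exact binomial test on the reads, added after the data were seen, called 8275 of 10294 genes and 37 of the 41 at a threshold of 0.05 after Benjamini-Hochberg adjustment, among them the 10 past 2-fold. It compares the 2 libraries, not the genotypes. Depth limits *Mt3*, *Slc39a2* and *Slc39a4*, with 22 reads or fewer in each library.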
